A study of Mus musculus with 18 samples.

Results

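The first step of natural killer (NK) cell maturation, the passage from CD27+CD11b- cells (called CD27 below) to CD27+CD11b+ double-positive cells (DP), was described in wild-type (WT) mice by setting the 3 WT DP arrays against the 3 WT CD27 arrays. These 6 arrays were chosen by their titles from the 18 arrays of the series, and all 35399 probe sets were compared. Every array measured total RNA of sorted spleen cells from ICR mice 6 weeks old, labelled as male or female, that had been injected 2 times, 2 days apart, with complexes of interleukin-15 (IL-15) and its receptor alpha chain. The DP and CD27 arrays of Runx3 -/- mice (KO) and of Runx3 +/+ mice (WT) are used here, together with the WT arrays of CD27-CD11b+ cells (CD11b), with 3 arrays in each group. Spleen cells were first enriched for NK cells by negative selection, then sorted as NKp46+ cells into the 3 fractions. Cells of all groups came from injected animals, KO included, so the comparison describes maturation under IL-15 and not in untreated mice. The labels do not say whether arrays came from separate animals or pools, so the p-values measure only the spread between these samples, which may be technical.

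NK cells are innate lymphocytes that kill target cells with perforin and granzymes and release cytokines. In the mouse spleen the CD27+CD11b- cells are regarded as immature, gain the integrin CD11b at the double-positive stage and later lose CD27. Maturation is known for a gain of the killing machinery and for the loss of receptors of early cells, such as the IL-7 receptor, under transcription factors that include T-bet, Eomes, Zeb2 and Blimp-1. IL-15 drives survival, growth and granule loading of these cells.

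Values are deposited log2 expression values, so a difference of 1 is a 2-fold change. The 18 arrays had medians of 6.271 to 6.355, and Pearson's r among the 6 WT arrays compared was 0.9839 to 0.993. The median SD within groups was 0.141, and precision is limited by having 3 arrays per group. Two-sided adjusted p-values are from limma over all probe sets, with 0.05 as the threshold for "passing", because a permutation of 3 arrays against 3 cannot give a p under 0.1. For each probe set 1 spread was shared by all 6 groups. Intervals and p-values are therefore too narrow or small where the compared groups spread more than the others, and too wide or large where they spread less. For most of the 15 largest rises and 15 largest falls named below, the WT CD27 arrays spread more than the WT DP arrays and either KO group. The sort was visible in its own genes. Itgam, which encodes CD11b, had 12.37, 12.43 and 12.30 on the WT DP arrays, against 10.56, 10.62 and 9.25 on the WT CD27 arrays, 4.67-fold higher in DP cells (95% interval 3.17 to 6.87, adjusted p = 0.00123), and CD27 replicate 3 lay lowest. Cd27 had 11.56, 11.67 and 11.55 on the WT DP arrays, against 11.76, 11.91 and 11.72 on the WT CD27 arrays, a change of -0.20 that did not pass (adjusted p = 0.958), and both fractions were gated as CD27+. Ncr1, which encodes NKp46, differed by 0.04 (adjusted p = 0.984). These genes were used for sorting and are not results.

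In all, 197 probe sets passed, which is 0.557% of those tested. Of these, 77 (0.218%) were higher and 120 (0.339%) lower in DP than in CD27 cells, and on each of the 197 the 3 DP arrays lay apart from the 3 CD27 arrays. Among the rises 20 exceeded a 2-fold change, with a median of 1.705-fold, and among the falls 55 did, with a median of 1.917-fold. The 197 probe sets include 60 named genes that rose and 89 that fell when each gene is taken at its brightest probe set (149 of 19938 genes, 0.747%, of which 0.301% rose and 0.446% fell). A further 16 rises and 28 falls have no single gene symbol. The median change over all probe sets was 0.019, and 2922 probe sets had an unadjusted p under 0.05. The count fell to 88, 107 and 104 without DP replicate 1, 2 or 3 and to 81 and 126 without CD27 replicate 2 or 3, and it was 208 without CD27 replicate 1. With the 2 compared groups alone in the model it was 5, and the cause of this lower count was not tested. In bulk samples, fewer cells of a type and less RNA per cell cannot be told apart.

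**Figure D1:**
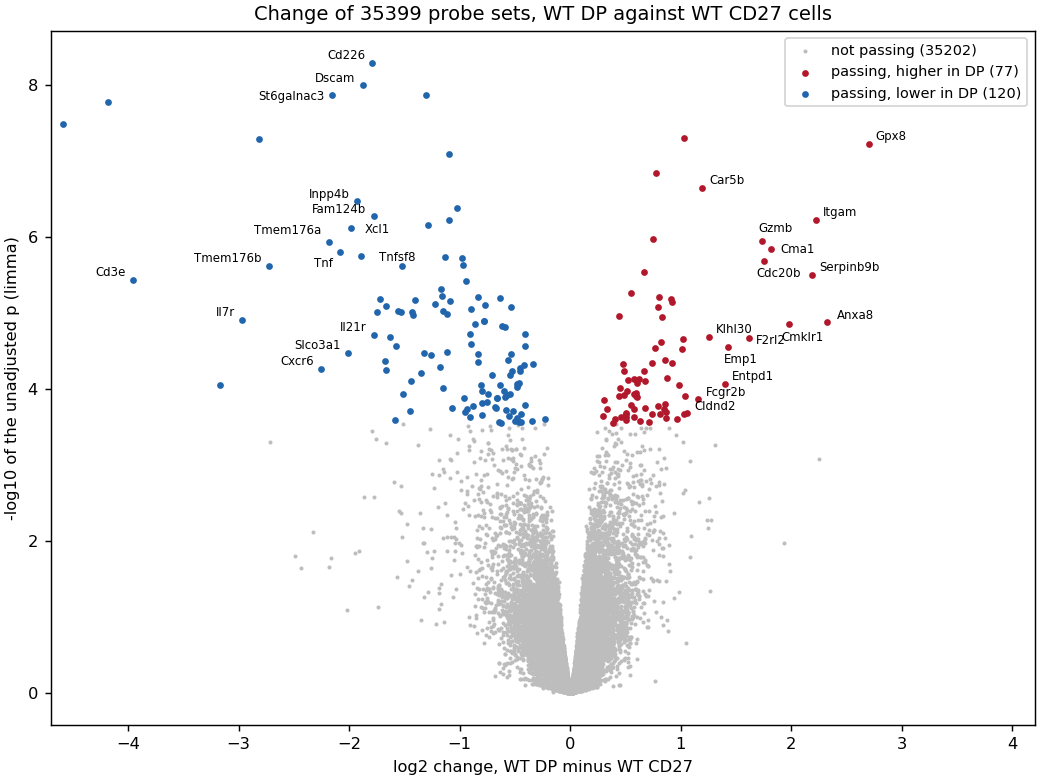
Change of each of 35399 probe sets between WT DP and WT CD27 cells (log2, horizontal) against -log10 of the unadjusted limma p (vertical). Red points are the 77 that passed as higher in DP and blue points the 120 that passed as lower, and the labels name the 15 largest rises and 15 largest falls with 1 gene symbol. The falls reach further from 0 than the rises, to -4.59 for a probe set without a single symbol and -3.96 for Cd3e, against 2.70 for Gpx8.

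Genes of the killing machinery were among the largest rises. Gzmb, which encodes granzyme B, the protease that triggers death of target cells, had 12.36, 11.86 and 11.96 on the WT DP arrays, against 10.86, 9.68 and 10.43 on the WT CD27 arrays. All 3 DP arrays lay above all 3 CD27 arrays, with a 3.33-fold rise (95% interval 2.42 to 4.58, adjusted p = 0.00184). Serpinb9b, a member of the serpin family of granzyme inhibitors, had 12.37, 12.08 and 11.85 on the WT DP arrays, against 10.50, 10.22 and 9.03 on the WT CD27 arrays and rose 4.54-fold (95% interval 2.93 to 7.04, adjusted p = 0.00335). Here too the groups did not overlap, with CD27 replicate 3 the lowest array. Cma1, a chymase known from mast cells, had 10.49, 10.32 and 10.39 on the WT DP arrays, against 9.09, 8.79 and 7.87 on the WT CD27 arrays and was 3.53-fold higher (adjusted p = 0.00221). Gzma, which encodes granzyme A, was bright in both fractions, with 13.44, 13.35 and 13.32 on the WT DP arrays, against 13.00, 12.88 and 12.89 on the WT CD27 arrays, a 1.36-fold rise (adjusted p = 0.00644).

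Of the 26 cytotoxic granule genes measured, 6 rose and 3 fell, beside the 0.301% and 0.446% of all genes, and 17 missed the threshold. Their median change was 0.15, against 0.0232 over 19938 genes. All gene lists here were drawn up with earlier results of these data known, so such shares and medians are descriptions and no test. Beside Gzmb, Serpinb9b and Gzma, the rises were those of Gzmk, which encodes granzyme K, at 0.83 log2 (adjusted p = 0.00652), of Rab27a, a small GTPase that docks granules at the membrane, at 0.67 (adjusted p = 0.00319), and of the granzyme B inhibitor Serpinb9 at 0.58 (adjusted p = 0.0234). Gzmk, Rab27a, Serpinb9 and Lyst were named after their values were seen. The 3 falls included another granzyme. Gzmm, which encodes granzyme M, had 6.99, 6.83 and 6.70 on the WT DP arrays, against 8.27, 8.50 and 8.75 on the WT CD27 arrays, a 3.18-fold fall (adjusted p = 0.0058). Tnfsf10, which encodes the death ligand TRAIL, averaged 8.49 ± 0.36 in DP and 10.22 ± 0.25 in CD27 cells (SD, n = 3 each), with no overlap of the arrays and a 3.3-fold fall (adjusted p = 0.00536). Lyst, a regulator of lysosome-related organelles, changed by -0.61 log2 (adjusted p = 0.00769). The granule genes thus moved in both directions, with granzymes A, B and K higher and granzyme M lower. Prf1, which encodes perforin, had 13.20, 13.21 and 13.29 on the WT DP arrays, against 12.70, 12.53 and 12.41 on the WT CD27 arrays, a difference of 0.68 that did not pass (adjusted p = 0.0548), and it too was named after its values were seen.

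Other genes had rises of similar size. Gpx8, a glutathione peroxidase family member of the endoplasmic reticulum, had the largest rise among named genes, with 11.91, 11.69 and 11.67 on the WT DP arrays, against 9.78, 8.74 and 8.65 on the WT CD27 arrays. It was 6.49-fold higher in DP cells (95% interval 4.39 to 9.59, adjusted p = 0.000236), and its lowest DP array lay above its highest CD27 array by more than the range of either group. Anxa8, a phospholipid-binding annexin, had 6.90, 8.34 and 7.86 on the WT DP arrays, against 5.55, 5.35 and 5.22 on the WT CD27 arrays, a 5.01-fold rise (adjusted p = 0.00724). All 3 CD27 arrays of Anxa8 lay below 6.333, the median level of all probe sets, and the DP arrays spread more widely, with replicate 1 lowest.

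Several of these genes encode receptors. Cmklr1, the receptor of the chemoattractant chemerin, had 9.94, 9.45 and 9.92 on the WT DP arrays, against 8.65, 7.00 and 7.73 on the WT CD27 arrays, a 3.93-fold rise (adjusted p = 0.00746). F2rl2, a protease-activated receptor, was 3.06-fold higher, and Fcgr2b, the inhibitory Fc gamma receptor, 2.23-fold higher. Entpd1, the ectonucleotidase CD39 that degrades extracellular ATP, had 11.29, 10.91 and 10.72 on the WT DP arrays, against 10.24, 9.10 and 9.39 on the WT CD27 arrays, a 2.63-fold rise (adjusted p = 0.0253). Emp1, a small membrane protein, rose 2.68-fold, and Cldnd2, a claudin domain protein, 2.08-fold. Of the rest, Car5b, a mitochondrial carbonic anhydrase, had 11.65, 11.58 and 11.61 on the WT DP arrays, against 10.76, 10.47 and 10.02 on the WT CD27 arrays, with the tightest DP values among these genes and a 2.28-fold rise (adjusted p = 0.000659). Cdc20b, related to the cell division gene Cdc20, rose 3.37-fold, and Klhl30, of the kelch-like family, 2.38-fold. Some of these calls ended with 1 array left out, with a highest adjusted p of 0.0666 for Emp1 (without DP replicate 1 only), 0.0654 for F2rl2, 0.0591 for Klhl30 and 0.126 for Entpd1 (each highest without CD27 replicate 2), 0.145 for Fcgr2b (without DP replicate 1) and 0.164 for Cldnd2 (without CD27 replicate 3).

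**Figure D2:**
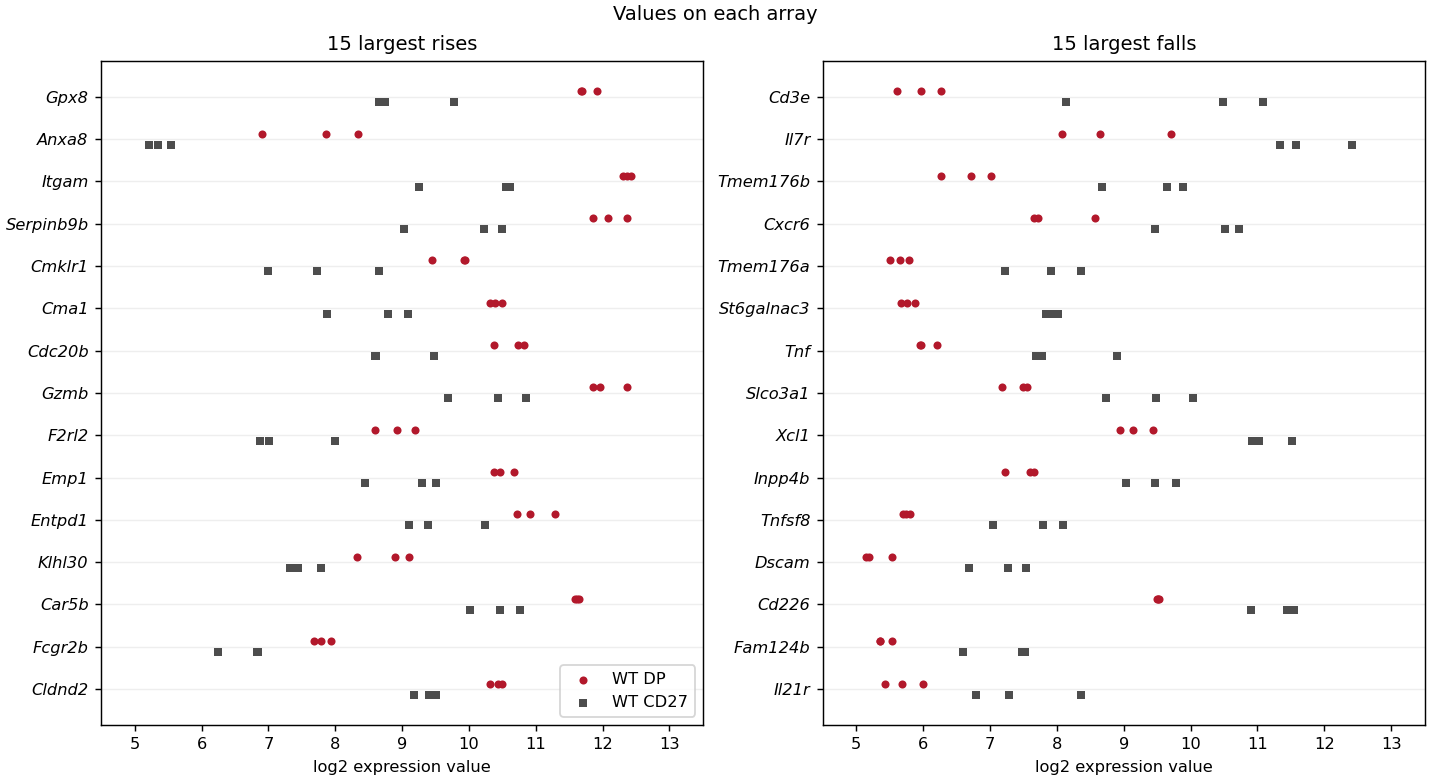
Deposited log2 values (horizontal) of the 15 largest rises (left) and the 15 largest falls (right) on each of the 3 WT DP arrays (red circles) and the 3 WT CD27 arrays (grey squares). In all 30 genes the 2 groups do not overlap, which was a condition for their choice. DP arrays of Cd226 lie between 9.50 and 9.52, while the CD27 arrays of Cd3e spread from 8.14 to 11.09.

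On the list of mature NK genes, 4 of 15 measured members rose (Cma1, Entpd1, Prdm1 and Gzma), none fell and 11 missed the threshold, beside 0.301% of all genes that rose. The median change was 0.58, and the DP arrays lay wholly above the CD27 arrays in 9 of 15 members, against 10.3% of all genes. These shares too are descriptions, since the list was chosen with earlier results of these data known. Several of the 11 had large differences with wide spreads and were named after their values were seen. Cx3cr1, the fractalkine receptor, had 10.41, 8.97 and 9.87 on the WT DP arrays, against 9.17, 6.53 and 6.80 on the WT CD27 arrays, a difference of 2.25 with overlapping arrays (adjusted p = 0.101). Klrg1, an inhibitory lectin receptor of mature NK cells, had 13.26, 12.90 and 12.81 on the WT DP arrays, against 12.24, 11.57 and 11.35 on the WT CD27 arrays, a difference of 1.27 (adjusted p = 0.245). Zeb2, a transcription factor needed for the last maturation step in the mouse, had 11.19, 10.72 and 11.56 on the WT DP arrays, against 10.71, 9.96 and 9.92 on the WT CD27 arrays, a difference of 0.96 (adjusted p = 0.0636). The number of passing members was 2 without CD27 replicate 2 and 6 without CD27 replicate 1, and 3 or 4 without any other array. Cma1 is also on the list of mast cell and basophil markers, where it alone passed among 12, beside 0.301% of all genes that rose. On all 6 arrays 9 of those 12 lay below 6.333.

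Many genes that mark type 1 innate lymphoid cells (ILC1), relatives of NK cells, were lower in DP cells. Il7r, the alpha chain of the IL-7 receptor, had 8.08, 9.70 and 8.64 on the WT DP arrays, against 11.57, 12.42 and 11.34 on the WT CD27 arrays, a 7.81-fold fall (95% interval 3.99 to 15.3, adjusted p = 0.00702). The groups did not overlap, and replicate 2 was the highest array in each fraction. Tmem176b and Tmem176a, a neighbouring pair of membrane proteins expressed in several innate lymphoid cells, moved alike. Tmem176b had 6.72, 7.02 and 6.26 on the WT DP arrays, against 9.64, 9.88 and 8.67 on the WT CD27 arrays, a 6.63-fold fall (adjusted p = 0.00272). Tmem176a had 5.79, 5.65 and 5.50 on the WT DP arrays, against 7.91, 8.36 and 7.22 on the WT CD27 arrays, a 4.55-fold fall (adjusted p = 0.00184), and its DP arrays lay under the 6.333 median of all probe sets. Inpp4b, a lipid phosphatase of the phosphoinositide pathway, had 7.66, 7.60 and 7.22 on the WT DP arrays, against 9.46, 9.78 and 9.03 on the WT CD27 arrays and fell 3.8-fold (adjusted p = 0.000921).

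Of the 19 ILC1-like markers measured, 11 fell, none rose and 8 missed the threshold, beside 0.446% of all genes that fell. The median change of the list was -1.51, against 0.0232 over all genes, and in 15 of 19 members all DP arrays lay below all CD27 arrays, against 5.72% of all genes. Because this list was chosen with earlier results of these data known, the shares are no independent test. The other members that fell were Cxcr6 (log2 change -2.25), Il21r (-1.78), Tnfsf10 (-1.72), Cd200r1 (-1.57), Gpr183 (-1.45), Rora (-1.18) and Ahr (-1.12). Cd200r1, an inhibitory receptor, was named after its values were seen. Kit, the stem cell factor receptor, had 6.63, 7.48 and 6.59 on the WT DP arrays, against 8.83, 9.78 and 10.24 on the WT CD27 arrays, a difference of -2.71 that did not pass (adjusted p = 0.0734). Itga1, the integrin CD49a by which ILC1 are often recognised, differed by -0.10 (adjusted p = 1), and the activation marker Cd69 by 0.08 (adjusted p = 1). Kit, Itga1 and Cd69 were also named after their values were seen. With 1 array left out, 6 members passed without DP replicate 2, 7 without CD27 replicate 2 and 8 to 10 without any other array, and 13 of the 19 genes stand on other lists too. Of 14 immature NK genes, 2 fell (Il7r and Xcl1), none rose and 12 missed the threshold, beside 0.446% of all genes that fell, and the median was -0.18. Lef1, Thy1, Eomes and Ets1, 4 of those that missed it, had differences above 0.

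The largest falls came from genes of the T cell receptor complex. Cd3e, the epsilon chain of CD3, had 5.97, 6.27 and 5.61 on the WT DP arrays, against 10.49, 11.09 and 8.14 on the WT CD27 arrays, a 15.5-fold fall (95% interval 6.94 to 34.7, adjusted p = 0.0038). Its DP arrays lay below the median level of all probe sets, and the CD27 arrays spread over almost 3 log2 units with replicate 3 lowest. Cd3d, the delta chain, had 8.30, 8.43 and 8.14 on the WT DP arrays, against 9.38, 9.93 and 10.58 on the WT CD27 arrays, a 3.2-fold fall (adjusted p = 0.0166), with CD27 replicate 3 highest. This call ended without each of 4 arrays, at an adjusted p of up to 0.0767 without DP replicate 3. Cd3g, the gamma chain, named after its values were seen, stayed bright in both, with 12.04, 11.51 and 11.65 on the WT DP arrays, against 12.23, 12.26 and 12.62 on the WT CD27 arrays (log2 change -0.64, adjusted p = 0.603).

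Larger falls than that of Cd3e were seen on 2 probe sets that the annotation assigns to several variable segments of the T cell receptor gamma chain at once. One had 7.30, 7.34 and 6.79 on the WT DP arrays, against 12.07, 12.51 and 10.62 on the WT CD27 arrays, a 24-fold fall (adjusted p = 0.000194). The other had 7.37, 7.71 and 7.12 on the WT DP arrays, against 11.75, 12.28 and 10.74 on the WT CD27 arrays, an 18.2-fold fall (adjusted p = 0.000119), and another probe set, assigned to some of these segments, fell 9-fold (adjusted p = 0.0255). Which segment gave the signal cannot be told from these probe sets. Trgv1, another gamma variable segment with a probe set of its own, named after its values were seen, changed by -1.75 log2 (adjusted p = 0.00609).

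Among 16 T cell markers, 2 fell (Cd3e and Cd3d), none rose and 14 missed the threshold, beside 0.446% of all genes that fell, and the median was -0.39. The count was 1 without DP replicate 1 or 3 or CD27 replicate 2 or 3, and 3 without CD27 replicate 1. The mean log2 level of the 16 ranged from 6.724 to 6.832 on the DP arrays, against 7.280 to 7.587 on the CD27 arrays. On all 6 arrays 8 of the 16 lay below 6.333, among them Cd4 (at most 5.08), Cd8a (6.16), Cd8b1 (5.69), Cd5 (6.05) and Cd6 (5.46), with Themis, Foxp3 and Ctla4 the rest. The other 8 were brighter. Beside the 3 CD3 chains these were Cd28, with 12.16 on its highest array, Icos (9.84), Zbtb7b (8.90), Trat1 (7.19) and Bcl11b (7.18). Some T cells carry gamma delta receptors and lack CD4 and CD8, and whether such cells had a part in the falls of the CD3 and gamma chain genes was not tested. Of the other lists of foreign cell types, none of 11 B cell, 15 macrophage, 15 neutrophil or 10 erythroid and platelet markers passed, beside 0.747% of all genes. Of these, in the same order, 8, 13, 14 and 8 lay below 6.333 on all 6 arrays. The B cell gene Cd22 differed by -1.29 without overlap of the arrays (adjusted p = 0.378). Of 14 dendritic cell genes 1 fell (Ccr7), beside 0.446% of all genes that fell, and 10 of the 14 lay below 6.333 on all 6 arrays.

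Several secreted signals were lower in DP cells. Tnf, the inflammatory cytokine, had 5.95, 5.97 and 6.20 on the WT DP arrays, against 7.77, 7.68 and 8.90 on the WT CD27 arrays, a 4.23-fold fall (adjusted p = 0.00234). All DP arrays lay below 6.333, and CD27 replicate 3 was the highest array by more than 1 log2 unit. Xcl1, the chemokine lymphotactin that draws cross-presenting dendritic cells, had 9.14, 9.43 and 8.94 on the WT DP arrays, against 10.92, 11.52 and 11.02 on the WT CD27 arrays, a 3.96-fold fall (95% interval 2.78 to 5.64, adjusted p = 0.00141). Of 16 cytokines and chemokines measured, 5 fell, none rose and 11 missed the threshold, beside 0.446% of all genes that fell, and the median was -0.01. With 1 array left out, 3 passed without DP replicate 1 or CD27 replicate 2 and 4 or 5 otherwise. The other 3, the T cell growth factor Il2 (-0.77 log2, adjusted p = 0.0058), lymphotoxin alpha Lta (-0.55, adjusted p = 0.0215) and the myeloid growth factor Csf2 (-0.41, adjusted p = 0.0121), were all low. For Lta the highest of the 6 arrays was 5.54, for Il2 it was 6.25 and for Csf2 it was 5.72, so that their falls took place below the median level of all probe sets. Csf2 was named after its values were seen, and the Lta call ended without each of 5 arrays, at an adjusted p of up to 0.117 without CD27 replicate 2.

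In the tumour necrosis factor family, 5 of 21 measured members fell, none rose and 16 missed the threshold, beside 0.446% of all genes that fell, and the median was -0.20. Tnfsf8, the ligand of CD30, had 5.80, 5.74 and 5.70 on the WT DP arrays, against 7.79, 8.09 and 7.04 on the WT CD27 arrays, a 3.71-fold fall (adjusted p = 0.00245). Tnfrsf26, a decoy receptor family member, had 9.08, 9.59 and 9.08 on the WT DP arrays, against 10.53, 11.09 and 10.39 on the WT CD27 arrays, a 2.67-fold fall (adjusted p = 0.00639). Tnfrsf25, the death receptor DR3 that binds TL1A, had 7.12, 7.23 and 7.16 on the WT DP arrays, against 8.18, 8.39 and 7.77 on the WT CD27 arrays, a 1.93-fold fall (adjusted p = 0.00385). The groups did not overlap in any of these genes. Tnfsf10 and Lta, described above, complete the 5.

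Of 26 cytokine receptors, 1 rose, 3 fell and 22 missed the threshold, beside 0.301% and 0.446% of all genes, and the median was -0.03. The rise was that of Il12rb2, a chain of the IL-12 receptor, with 11.99, 11.91 and 12.05 on the WT DP arrays, against 11.77, 11.47 and 11.20 on the WT CD27 arrays (adjusted p = 0.0457). The falls were those of Il7r, of Il21r, the IL-21 receptor, with 5.68, 5.43 and 5.99 on the WT DP arrays, against 6.79, 7.29 and 8.36 on the WT CD27 arrays, and of the type I interferon receptor chain Ifnar2 (-0.34 log2, adjusted p = 0.0488). The calls of Il12rb2 and Ifnar2 ended without each of 5 arrays, at adjusted p-values of up to 0.186 without DP replicate 3 and 0.181 without CD27 replicate 3, and that of Il21r without DP replicate 2 (adjusted p = 0.0553). Without DP replicate 2 the list kept 1 call, without CD27 replicate 1 it had 5, and without any other array 2. Il2rb, the beta chain shared by the receptors of IL-2 and IL-15 and named after its values were seen, differed by -0.04 (adjusted p = 0.982).

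Of 18 chemokine receptors and genes of tissue egress, 4 fell, none rose and 14 missed the threshold, beside 0.446% of all genes that fell, and the median was 0.02. Cxcr6, the receptor of the transmembrane chemokine CXCL16, had 8.57, 7.71 and 7.66 on the WT DP arrays, against 10.73, 10.52 and 9.46 on the WT CD27 arrays, a 4.77-fold fall (adjusted p = 0.0191). Gpr183, an oxysterol receptor that guides lymphocytes, had 9.51, 8.88 and 8.87 on the WT DP arrays, against 10.82, 10.55 and 10.23 on the WT CD27 arrays, a 2.72-fold fall (adjusted p = 0.0421). Ccr7, the lymph node homing receptor, fell 2.51-fold (adjusted p = 0.0138), and Cxcr5, the follicle homing receptor, 1.75-fold at a low level (highest array 5.79, adjusted p = 0.0255). None of the 4 kept its call with every array left out in turn. The highest adjusted p was 0.101 for Cxcr6 and 0.0774 for Ccr7 (both without CD27 replicate 2), 0.176 for Gpr183 (without DP replicate 3) and 0.113 for Cxcr5 (without DP replicate 1). Without DP replicate 3 or CD27 replicate 2 none of the list passed, and without CD27 replicate 1 there were 2 falls and 1 rise.

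Among 25 activating and inhibitory receptors outside the NK gene complex, 2 fell and 23 missed the threshold, beside 0.446% of all genes that fell, and the median was 0.04. Cd226, the activating receptor DNAM-1, had 9.52, 9.51 and 9.50 on the WT DP arrays, against 11.44, 11.55 and 10.91 on the WT CD27 arrays. The DP arrays were almost identical and lay more than 1 log2 unit below the lowest CD27 array, a 3.46-fold fall (95% interval 2.79 to 4.28, adjusted p = 0.000119). Cd160, a receptor of HVEM, had 10.40, 9.89 and 10.31 on the WT DP arrays, against 11.30, 11.32 and 12.04 on the WT CD27 arrays, a 2.55-fold fall (adjusted p = 0.0205), which did not pass without each of 4 arrays, at up to 0.0952 without DP replicate 2. Of 17 lectin receptors of the NK gene complex, 1 fell, beside 0.446% of all genes that fell. It was Klrh1 (-0.53 log2, adjusted p = 0.014, and up to 0.079 without DP replicate 1), at a level below 6.333. None of the 6 Ly49 receptors measured of 19 listed passed, beside 0.747% of all genes. Klra6 differed by -0.24 and Klra17 by 0.18, with adjusted p-values of 0.889 and 0.964. Of 25 integrin and adhesion genes, Itgam alone passed, beside 0.301% of all genes that rose, and it was part of the sort gate and is no result. Of 19 signalling adaptors and kinases none passed, beside 0.747% of all genes. Fcer1g at 0.22 (adjusted p = 0.469) and Plcg1 at -0.63 (adjusted p = 0.227) had the smallest p-values of that list.

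The remaining genes among the 15 largest falls belong to none of these families. St6galnac3, a sialyltransferase, had 5.67, 5.88 and 5.76 on the WT DP arrays, against 8.02, 7.84 and 7.89 on the WT CD27 arrays, a 4.45-fold fall (95% interval 3.37 to 5.87, adjusted p = 0.000119). Dscam, an adhesion molecule of the immunoglobulin superfamily known from neurons, had 5.19, 5.54 and 5.14 on the WT DP arrays, against 6.69, 7.54 and 7.27 on the WT CD27 arrays, a 3.67-fold fall (95% interval 2.9 to 4.65, adjusted p = 0.000119). In both genes the groups lay well apart and the DP arrays were below 6.333. Slco3a1, an organic anion transporter, fell 4.03-fold (adjusted p = 0.0138, and 0.0758 without CD27 replicate 2, the highest of 3 arrays whose omission ended the call). Fam124b fell 3.43-fold (adjusted p = 0.00123).

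Of 35 transcription factors of NK cells, 2 rose, 3 fell and 30 missed the threshold, beside 0.301% and 0.446% of all genes, and the median was 0.04. Prdm1, which encodes Blimp-1, a factor of terminal differentiation in lymphocytes, had 10.98, 10.93 and 11.38 on the WT DP arrays, against 10.40, 9.75 and 10.07 on the WT CD27 arrays, a 2.03-fold rise (adjusted p = 0.0104). Irf8, a factor of the interferon regulatory family named after its values were seen, had 11.36, 11.36 and 11.50 on the WT DP arrays, against 10.60, 10.50 and 10.71 on the WT CD27 arrays, a change of 0.80 log2 (adjusted p = 0.00536). Ikzf2, which encodes Helios, had 8.98, 8.69 and 8.58 on the WT DP arrays, against 10.18, 10.60 and 9.69 on the WT CD27 arrays, a 2.65-fold fall (adjusted p = 0.00536). Rora, a nuclear receptor that type 2 innate lymphoid cells require, fell 2.27-fold (adjusted p = 0.0183), and Ahr, the aryl hydrocarbon receptor, 2.17-fold (adjusted p = 0.00634). The calls of Prdm1 and Rora ended without each of 2 and 4 arrays, at up to 0.0588 without CD27 replicate 2 and 0.0939 without DP replicate 1, and 3 members of the list passed without CD27 replicate 2.

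The factors that define the NK lineage were bright in both fractions. Tbx21, which encodes T-bet, had 12.39, 12.30 and 12.44 on the WT DP arrays, against 12.43, 12.22 and 12.13 on the WT CD27 arrays, overlapping groups and a fold of 1.09 (95% interval 0.943 to 1.25, adjusted p = 0.858). Eomes had 12.41, 12.58 and 12.59 on the WT DP arrays, against 12.42, 12.52 and 12.50 on the WT CD27 arrays, a fold of 1.04 (95% interval 0.916 to 1.17, adjusted p = 0.972). Runx3 had 11.40, 11.46 and 11.59 on the WT DP arrays, against 11.39, 11.49 and 11.46 on the WT CD27 arrays, a fold of 1.02 (95% interval 0.871 to 1.2, adjusted p = 1). For these 3 genes the interval leaves room for changes of up to 1.25-fold.

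Genes of division and metabolism gave no call, beside 0.747% of all genes. At that share a list of this size can be without a call and still not differ from all genes. None of 39 DNA replication genes (median -0.08), 55 mitosis genes (median 0.03) or 16 cell cycle inhibitors and quiescence genes (median 0.11) passed, and 29 of the 55 mitosis genes lay below 6.333 on all 6 arrays. The same was found for 18 glycolysis genes, 21 genes of Myc, ribosome making and amino acid uptake, 18 cholesterol synthesis genes, 31 respiratory chain genes, 23 interferon response genes, 26 immediate early genes, 12 BCL2 family genes and 8 GIMAP genes. Their medians ran from -0.13 for the Myc and ribosome making list to 0.11 for the immediate early list. Members with the smallest p-values of their lists included E2f2, an activator of the cell cycle, at 0.84 (95% interval of the fold 0.963 to 3.33), the apoptosis gene Bid at 0.37 and the lactate transporter Slc16a1 at 0.43, and none of their adjusted p-values was below 0.129. A p above the threshold does not show that the genes of these lists were equal in the 2 fractions. For some of them the spread shared by all groups included wider KO values. Gins2 had SDs of 0.061 and 0.034 in WT DP and CD27 cells, against 0.449 and 0.765 in KO. This did not hold for Klf2, with SDs of 0.15 and 0.312 in WT DP and CD27 cells, against 0.178 and 0.247 in KO. The part of the KO spread in the absence of calls was not tested.

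**Figure D3:**
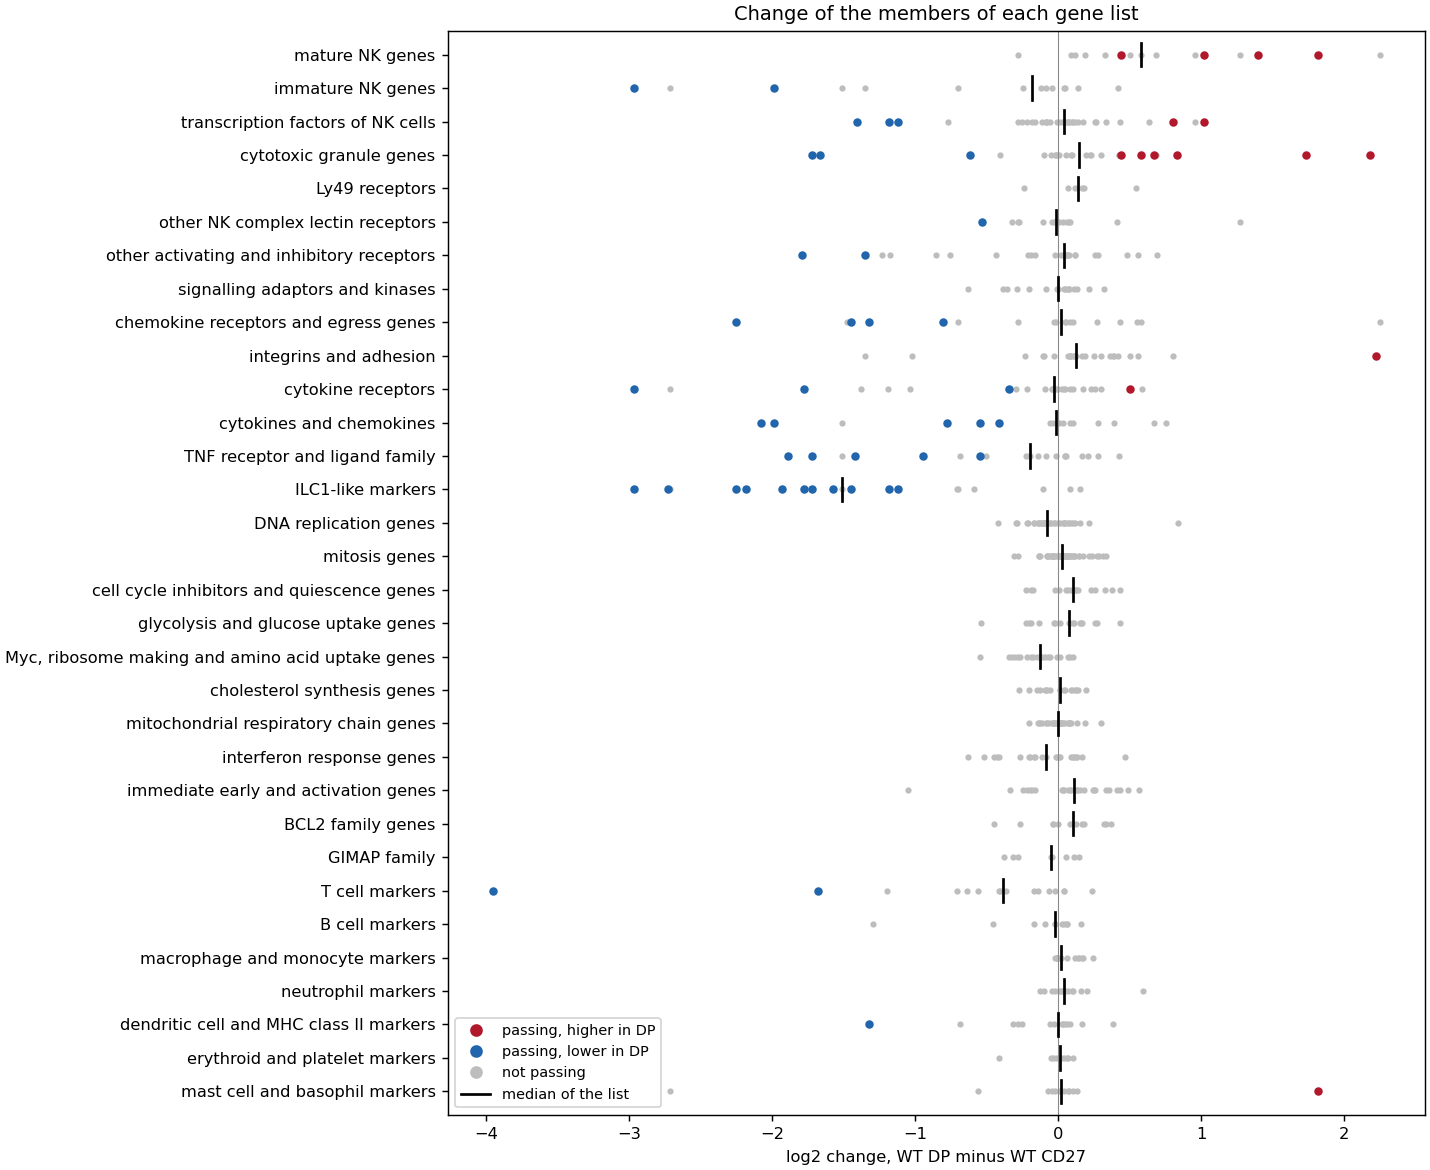
Log2 change between WT DP and WT CD27 cells (horizontal) of every measured member of each gene list (rows), with members passing as higher in DP in red, as lower in blue and others in grey, and the list's median as a black bar. The ILC1-like markers have 11 blue points and a median of -1.51, the mature NK genes 4 red points and a median of 0.58, and the division and metabolism lists no coloured point. Of all genes, 0.747% passed.

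Promoters are shown for 4 of the genes with the largest changes, since the study is about a Runx factor and T-box factors direct NK maturation. These genes are the 2 largest rises and the 2 largest falls among those with the Runx motif in a listed promoter. The presence of that motif in all 4 was thus fixed by the choice. Each sequence is the 250 bases before the RefSeq start in GRCm38.p6, read 5′ to 3′ on the gene's strand, with capitals marking the Runx motif TGTGGT (reverse ACCACA) and the T-box motif GGTGTG (reverse CACACC). The positions are chr14:34085729-34085978 (plus strand) for Anxa8, chr14:56262335-56262584 (minus strand) for Gzmb, chr9:123806227-123806476 (plus strand) for Cxcr6 and chr1:164935523-164935772 (minus strand) for Xcl1.
Anxa8: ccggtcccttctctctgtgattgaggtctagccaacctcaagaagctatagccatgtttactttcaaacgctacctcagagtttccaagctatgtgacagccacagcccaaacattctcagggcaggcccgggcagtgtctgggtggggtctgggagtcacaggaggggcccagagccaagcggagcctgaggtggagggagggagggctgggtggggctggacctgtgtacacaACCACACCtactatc
Gzmb: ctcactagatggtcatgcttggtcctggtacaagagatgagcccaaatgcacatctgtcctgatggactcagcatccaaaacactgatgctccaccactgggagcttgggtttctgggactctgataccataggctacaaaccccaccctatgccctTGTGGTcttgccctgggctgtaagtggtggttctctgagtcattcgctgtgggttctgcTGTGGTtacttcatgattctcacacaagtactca
Cxcr6: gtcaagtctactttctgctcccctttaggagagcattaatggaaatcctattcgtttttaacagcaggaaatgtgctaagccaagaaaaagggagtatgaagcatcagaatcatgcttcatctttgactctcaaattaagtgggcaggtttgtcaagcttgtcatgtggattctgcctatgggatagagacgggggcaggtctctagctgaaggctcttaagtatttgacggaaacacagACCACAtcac
Xcl1: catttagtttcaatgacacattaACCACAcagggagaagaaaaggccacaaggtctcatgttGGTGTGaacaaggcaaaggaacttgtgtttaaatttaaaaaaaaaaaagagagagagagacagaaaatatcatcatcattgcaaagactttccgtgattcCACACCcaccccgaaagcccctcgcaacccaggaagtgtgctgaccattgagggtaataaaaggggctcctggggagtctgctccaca
In Anxa8 the 2 motifs overlap in 1 run of capitals, Gzmb holds the Runx motif at 2 places, Cxcr6 at 1, and Xcl1 holds the Runx motif at 1 place and the T-box motif at 2.

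Of the 15 largest rises, 14 matched a RefSeq promoter entry, with 16 promoters in all, and of the 15 largest falls 13 did, also with 16 promoters. The Runx motif, searched on both strands, was found in 3 of 16 promoters of the rises (18.8%; Anxa8, Gzmb and Emp1) and in 4 of 16 of the falls (25%; Cxcr6, Xcl1, Fam124b and Il21r), against 14% of 32851 promoters. The T-box motif was found in 2 of 16 promoters of the rises (12.5%; Anxa8 and Cmklr1) and in 1 of 16 of the falls (6.25%; Xcl1), against 16.3% of all promoters. A match describes letters in this window only, and nothing follows from it about binding.

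The next stage was followed on the 3 WT CD11b arrays, which share the DP arrays as their comparison, so the values are only set side by side. Il7r had 11.57, 12.42 and 11.34 on the CD27, 8.08, 9.70 and 8.64 on the DP and 5.96, 6.38 and 6.25 on the CD11b arrays, with a further log2 change of -2.61 between CD11b and DP cells (adjusted p = 0.0181). Xcl1 had 10.92, 11.52 and 11.02 on the CD27, 9.14, 9.43 and 8.94 on the DP and 7.77, 7.62 and 7.55 on the CD11b arrays, a further -1.52 (adjusted p = 0.00835). Gpr183 and Cd3d also changed again, by -2.80 (adjusted p = 0.000422) and -2.31 (adjusted p = 0.00192). Other genes had smaller second changes. Gzmb had 10.86, 9.68 and 10.43 in CD27, 12.36, 11.86 and 11.96 in DP and 12.74, 12.51 and 12.59 in CD11b cells, where the second change was 0.56 (adjusted p = 0.444). Gpx8 had 9.78, 8.74 and 8.65 in CD27, 11.91, 11.69 and 11.67 in DP and 12.90, 13.03 and 12.94 in CD11b cells, a second change of 1.20 (adjusted p = 0.0664). Inpp4b, Cd226 and Serpinb9b had second changes of -0.55, -0.37 and 0.37, none of which passed. Cd27 itself, part of the gate, changed by -1.72 in the second step (adjusted p = 0.0109). The second step gave 186 passing probe sets (0.525%), 109 higher and 77 lower in CD11b than in DP cells. That count fell to 72 and 101 without DP replicate 2 or 3 and to 100, 103 and 75 without CD11b replicate 1, 2 or 3.

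**Figure D4:**
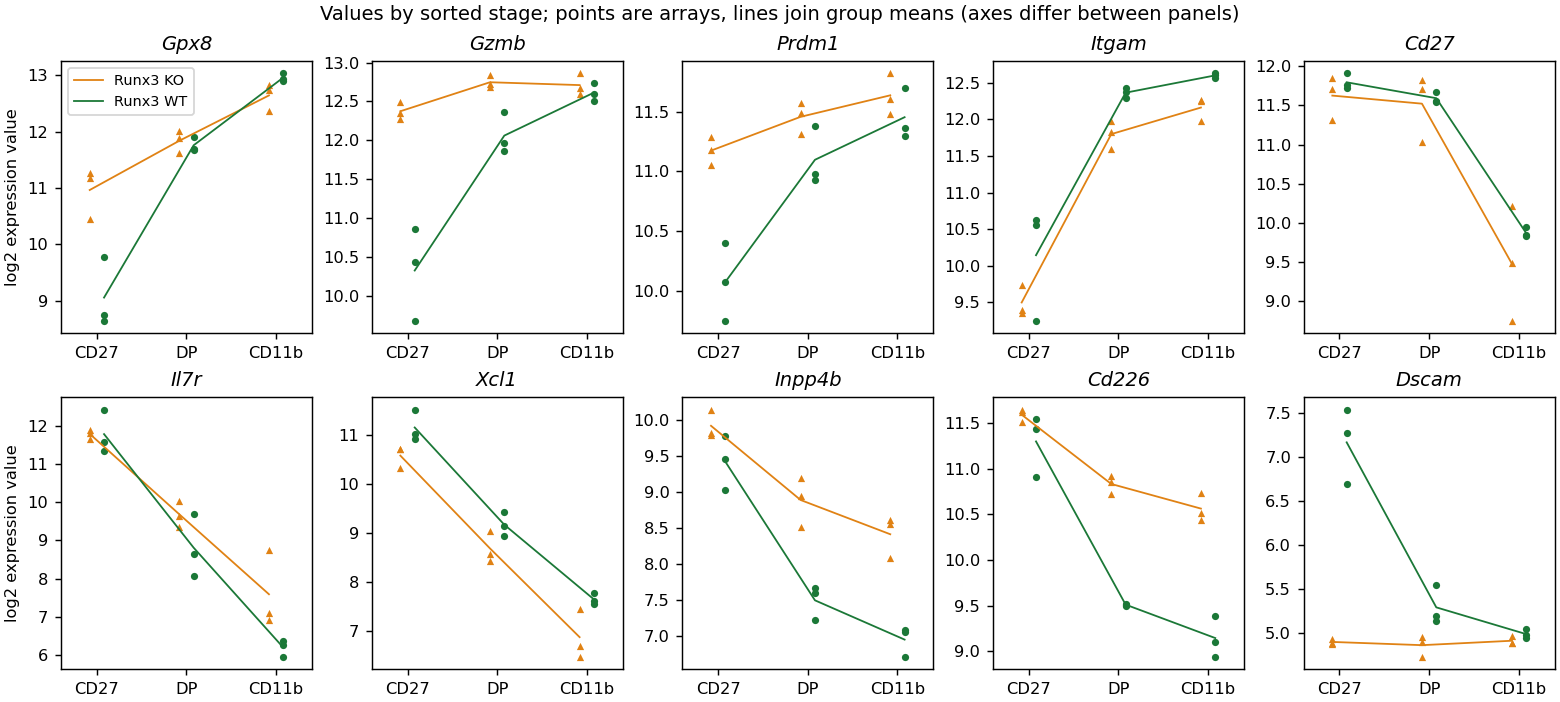
Deposited log2 values (vertical, axes differ between panels) of 10 genes in CD27, DP and CD11b cells of Runx3 KO (orange triangles) and WT mice (green circles), with 3 arrays in each group and lines through the group means. WT Il7r means run 11.774, 8.808 and 6.194 over the 3 stages, Cd27 is low only in CD11b cells, and Dscam is near 5 on all KO arrays.

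The same step was measured on arrays of Runx3 KO mice, which share no array with the WT step. In KO cells 7 probe sets passed (0.0198%), with 2004 at an unadjusted p under 0.05. They include Itgam (2.30 log2, adjusted p = 0.0119), which was part of the sort gate and is no result. The others include Xcl1 (-1.89, adjusted p = 0.0119), Tnfrsf25 (-1.06, adjusted p = 0.0119), St6galnac3 (-1.25, adjusted p = 0.0488) and the small nucleolar RNA gene Snora69. The KO count ran from 0 (without CD27 replicate 1) to 9 with 1 KO array left out, was 2 without DP replicate 2, DP replicate 3 or CD27 replicate 3, and was 0 without the 3 arrays of KO replicate 3. The direction of the WT changes was mostly found again. Of the 77 probe sets that rose in WT, 76 had a positive sign in KO, and of the 120 that fell, 117 had a negative sign, against 62.9% of all probe sets with equal signs in both genotypes. Without KO replicate 3 the counts were 77 and 116.

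For these probe sets the median log2 change was 0.33 in KO and 0.77 in WT for the rises and -0.47 in KO and -0.94 in WT for the falls. The probe sets were chosen by their WT change, so the larger WT medians are a description with no test. The ILC1-like markers had a median of -1.01 in KO and -1.51 in WT, and the mature NK genes 0.28 in KO and 0.58 in WT. For Gzmb the KO arrays had 12.84, 12.72 and 12.68 in DP cells and 12.49, 12.28 and 12.35 in CD27 cells, a KO change of 0.37, with KO CD27 arrays above every WT CD27 array. Serpinb9b was similar, with 13.05, 13.14 and 13.43 in KO DP cells and 12.83, 13.01 and 13.11 in KO CD27 cells, a KO change of 0.23.

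The difference between the 2 steps was tested directly, as the KO change minus the WT change, and 1 probe set passed (0.00282%), with 879 at an unadjusted p under 0.05. This was Dscam, which had 4.90, 4.73 and 4.95 in KO DP cells and 4.89, 4.87 and 4.93 in KO CD27 cells, a KO change of -0.04 against -1.88 in WT. These KO values lay below 6.333, the median level of all probe sets, already in CD27 cells, where little room was left for a fall. The difference was 1.84 log2 (SE 0.225, adjusted p = 0.0344). It did not pass without DP WT replicate 1 (adjusted p = 0.0892) or replicate 3 (0.179), nor without any single KO array (0.0704 to 0.179) or the KO replicate 3 arrays together (0.264), while its size stayed between 1.65 and 2.08. For Gzmb, Gpx8, Serpinb9b, Cd3e and Il7r the differences were -1.36, -1.83, -1.96, 2.81 and 0.86, and none passed.

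**Figure D5:**
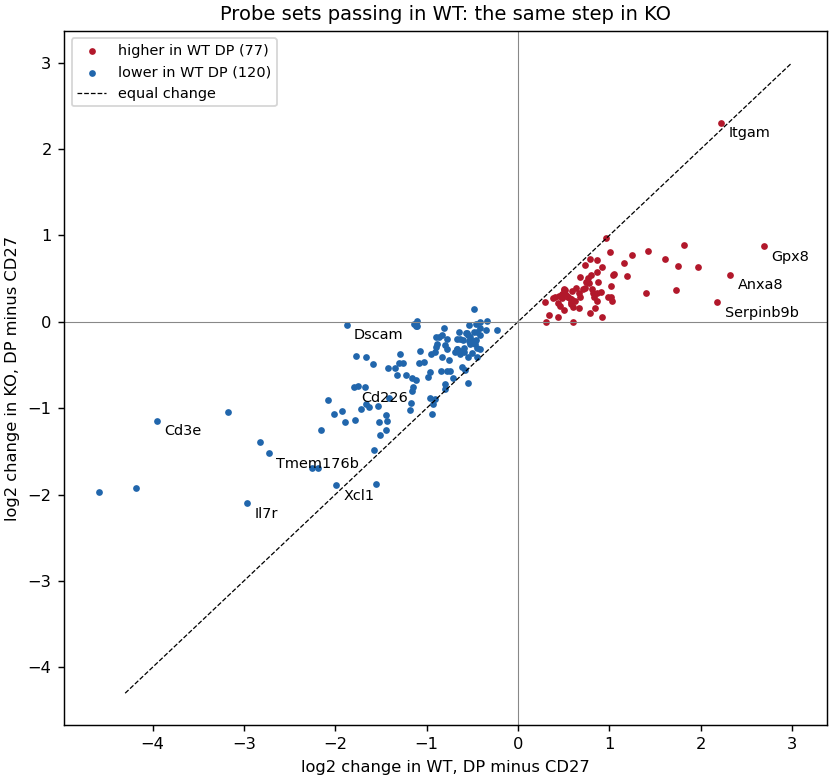
Log2 change between DP and CD27 cells in Runx3 KO mice (vertical) against the same change in WT mice (horizontal) for the 197 probe sets that passed in WT, higher in red and lower in blue, with a dashed line of equal change. Xcl1 and Itgam, a gene of the sort gate, lie near the line, most points lie between the line and 0, and Dscam lies at -0.04 in KO and -1.88 in WT.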

How the data were processed

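RNA of sorted spleen NK cells was labelled with an Affymetrix whole-transcript kit, per the labels' protocols. The authors deposited log2 expression values, 1 column for each of the 18 arrays, made with RMA and Partek per the submitters' processing notes; log2 is inferred here from their range, 3.91 to 14.96, and versions and genome build are not given in the sources used here. Of 35399 probe sets, 21789 have 1 gene symbol, 1621 several and 11989 none in the annotation used; the symbols of the 21698 with a gene identifier in RefSeq's table were equal to it. A linear model with 1 mean for each of 6 groups of 3 arrays was fitted with limma 3.58.1 in R 4.3.3 (12 residual and 2.18 prior degrees of freedom, eBayes, two-sided, Benjamini-Hochberg over all probe sets, threshold 0.05), with no filter on low values. The procedure was tested on simulated data.

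Gene lists (33 lists, 586 of 643 genes measured) used the brightest probe set of a gene. Named are Cd27, Itgam, Ncr1, Runx3, Tbx21 and Eomes, the 15 largest rises and falls with 1 symbol and no overlap of arrays (predicted, histone, Y-linked and olfactory genes passed over), and up to 4 passing members of a list or else the 2 of smallest p. The members, lists and rule were chosen with earlier results of these data known. Alternatives (with statmod 1.5.0) were cyclic loess, a filter at the median level, an intensity trend with a robust prior, smaller sets of arrays, array weights, 1 probe set per gene, a 1.5-fold minimum, replicate number as a block and each array left out.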

Additional observations from a re-analysis of the deposited data

Results flagged for a closer look

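Dscam, an adhesion molecule, differed between the genotypes in the DP to CD27 comparison by a direct test of that difference. The change in Runx3 KO mice minus the change in WT mice was 1.84 log2 (SE 0.225, adjusted p = 0.0344 by limma over all probe sets). The 6 KO arrays of both fractions lay between 4.73 and 4.95, while the WT DP arrays had 5.19, 5.54 and 5.14 and the WT CD27 arrays 6.69, 7.54 and 7.27. At the low KO level, under the 6.333 median of all probe sets, little room was left for a fall. The difference kept its sign but did not pass without WT DP replicate 1 (adjusted p = 0.0892) or 3 (0.179), without any single KO array (0.0704 to 0.179) or without the KO replicate 3 arrays together (0.264).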

How the results depend on the processing

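All 49 named calls kept their sign under the alternatives run for single genes. The medians of 13 of 33 gene lists, all near 0, took both signs over the alternatives, among them the chemokine receptors (0.02, from -0.12 to 0.09), glycolysis (0.08, from -0.01 to 0.10) and interferon response genes (-0.09, from -0.24 to 0.05). The 197 probe sets of the WT step became 224 with cyclic loess, 177 above the median level, 194 with an intensity trend and robust prior, 178 with 1 probe set per gene and 145 with a 1.5-fold minimum. They were 5 with the 2 compared groups alone and 126 with the 9 WT arrays alone. Both settings leave fewer arrays to estimate the spread and leave out the spread of the KO arrays. With array weights they were 458. The causes of these 3 changes in the count were not tested. Spreads also differed between groups. Cd3e had SDs of 1.56 in WT CD27 and 0.331 in WT DP cells, against 0.657 and 0.119 in KO. For most of the 15 largest rises and 15 largest falls, the WT CD27 arrays spread more than the WT DP, KO CD27 and KO DP arrays. Itgam had SDs of 0.772 and 0.066 in WT CD27 and DP cells, against 0.21 and 0.193 in KO. Tnf had 0.681 and 0.139 in WT, against 0.348 and 0.099 in KO. St6galnac3 went the other way, with 0.094 and 0.105 in WT, against 0.18 and 0.261 in KO. The part of unequal spread in these counts was not tested. With 1 array left out the count of the WT step ran from 81 to 208. The KO step (7) gave 0 to 9, the difference of the steps (1) gave 0 to 5 and WT CD11b against DP (186) gave 72 to 222 with 1 array left out. The KO step, with 2 higher and 5 lower, had 2 higher and 0 lower without KO DP replicate 3 and 0 higher and 2 lower without KO DP replicate 2. Without the KO replicate 3 arrays the KO step and the difference gave 0 each. Cyclic loess gave 7, 1 and 256 for these 3 comparisons, moved the median of all probe sets by -0.0187 and split the 256 into 129 higher and 127 lower. Same-numbered WT DP and CD27 arrays deviated from their group means with r of 0.44, 0.139 and -0.00943. Differently numbered arrays had r from -0.4 to 0.275. The labels do not say what the numbers mark, so they were not taken to pair arrays in the main model. Whether same-numbered arrays share an origin is not settled by these values. With the replicate block the counts were 694 (338 higher and 356 lower) for the WT step, 95 for the KO step, 2 for the difference and 851 for CD11b against DP, and a random block gave 397 (correlation 0.206). The replicate block moved the count of calls by over 1.5 times in 17 of the 33 lists. Of the 17 lists with no call, 6 then had calls, with 2 each for the immediate early and BCL2 lists and 1 each for the Ly49, DNA replication, glycolysis and B cell lists, and the cytokine list had 4 rises beside 6 falls. Without CD27 replicate 3 the BCL2 list had 1 call. Of 49 named calls, 24 were kept under all 11 alternatives run for single genes, none was lost with cyclic loess, the trend or either block, and 21 were lost with the 9 WT arrays alone. The number of arrays limits what can be called, the table holds no detection call for low signals, and probe sets without a symbol were counted but hardly described.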

Other observations

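Genes on none of the lists also changed between WT DP and WT CD27 cells, and those given here were chosen after their values were seen. Tnfaip8, a regulator of cell death, changed by -1.30 log2 (adjusted p = 0.000119). The insulin receptor gene Insr had 2 passing probe sets, the one with the larger fall at -1.16 (adjusted p = 0.00536) and the other at -1.08 (adjusted p = 0.00543). P2rx7, a receptor of extracellular ATP, changed by -1.44 (adjusted p = 0.024), the opposite direction to the ATP-degrading Entpd1 (1.40). Camk4, a calcium-dependent kinase, changed by -1.63 (adjusted p = 0.01), Aim2, a sensor of cytosolic DNA, by -1.59 (adjusted p = 0.0484), and Kir3dl1, a killer immunoglobulin-like receptor gene, by -1.13 (adjusted p = 0.00245). Among the rises were Steap3, a metalloreductase of iron uptake, at 1.04 (adjusted p = 0.0313), Srxn1, which repairs oxidised peroxiredoxins, at 0.48 (adjusted p = 0.0172), and Pik3cb, a catalytic subunit of phosphoinositide 3-kinase, at 0.60 (adjusted p = 0.0305).

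Klra3 and Cd72, also chosen after their values were seen, differed more between replicate numbers than between the fractions. The Ly49 receptor gene Klra3 had 12.94, 11.50 and 11.08 on the WT DP arrays, against 12.39, 10.98 and 10.52 on the WT CD27 arrays. Cd72, a B cell gene, had 10.24, 7.62 and 6.26 on the WT DP arrays, against 10.03, 7.50 and 7.09 on the WT CD27 arrays. In both genes replicate 1 was highest in each fraction.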
